A study of Mus musculus with 16 samples.

Results

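Genes that produce, remove and sense extracellular adenosine, ATP and related nucleotides were compared between Tim-4+ and Tim-4- tumor-associated macrophages (TAMs). The 10 members were chosen by name, with earlier results of these data known, from 55604 genes listed. They are *Nt5e*, *Entpd1*, *Ada*, *Adora2a*, *Adora2b*, *Adora3*, *P2rx4*, *P2rx7*, *P2ry6* and *P2ry14*. RNA was sequenced from 4 numbered pairs, each with a Tim-4+ and a Tim-4- library, of TAMs taken from the peritoneal cavity of female C57BL/6 mice 6 to 7 weeks after ID8 cells were injected there. ID8 cells derive from mouse ovarian surface epithelium and form peritoneal tumors with ascites. The mice were 6 to 8 weeks old when used. No library came from a tumor-free or treated mouse, so both subsets shared the tumor. Tim-4+ TAMs were enriched with an anti-Tim-4 antibody and magnetic beads, and Tim-4- TAMs were then enriched with F4/80 beads from the remaining cells, so the fractions differed in how they were isolated as well as in Tim-4. The samples are also described as sorted, without a clear account of whether a cell sorter was used. The sources used here do not say whether a pair was 1 mouse or a pool of mice.

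ATP released by stressed or dying cells is a danger signal that opens P2X channels and activates P2Y receptors on macrophages. The surface enzyme CD39, encoded by *Entpd1*, degrades ATP to AMP, and CD73, encoded by *Nt5e*, converts AMP to adenosine. Adenosine acts on P1 receptors, of which the 2A and 2B subtypes raise cAMP and dampen inflammatory responses, until it is taken up or deaminated by adenosine deaminase, encoded by *Ada*. Adenosine of this kind is a known suppressor of antitumor immunity.

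The sequences of the promoters of *P2rx4* and *P2ry14* are shown because both genes passed the test below. Each run is the 250 bases before a RefSeq start on GRCm38.p6, written 5′ to 3′ on the strand of the gene. Capitals mark cAMP response element (CRE) half-sites (TGACG on either strand) in *P2rx4*, on the plus strand at chr5:122707294-122707543, and GATA sites (AGATAA or TGATAA on either strand) in the most upstream of 4 *P2ry14* promoters, on the minus strand at chr3:59153493-59153742.
P2rx4 promoter: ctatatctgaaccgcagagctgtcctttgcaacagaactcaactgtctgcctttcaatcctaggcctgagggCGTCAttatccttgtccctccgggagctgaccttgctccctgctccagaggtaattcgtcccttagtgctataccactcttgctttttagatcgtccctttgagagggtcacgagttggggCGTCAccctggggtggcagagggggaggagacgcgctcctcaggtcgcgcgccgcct
P2ry14 promoter: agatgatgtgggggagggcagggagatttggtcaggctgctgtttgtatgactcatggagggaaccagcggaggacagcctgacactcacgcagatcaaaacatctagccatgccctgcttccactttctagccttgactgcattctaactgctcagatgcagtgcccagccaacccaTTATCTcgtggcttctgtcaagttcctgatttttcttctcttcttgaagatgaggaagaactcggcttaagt
Counted back from the start, the *P2rx4* half-sites began at -178 and -57, and the *P2ry14* GATA match began at -72. In GENCODE the *P2ry14* gene reaches 59153618, so part of its run, including the GATA match, lies inside the annotated gene. RefSeq promoters were matched for 8 of the 10 members, 13 promoters in all. None was matched for *P2ry6* or for *Adora2a*, which also passed the test. A CRE half-site stood in 3 of the 13, those of *P2rx4* and *Entpd1*, and in 17.8% of 32851 promoters of this length. These 32851, called all promoters here, did not cover every chromosome. A GATA site stood in 3, those of *P2rx7* and *P2ry14*, and in 16.6% of all promoters. The NR4A site AAGGTCA stood in 2, those of *P2rx4* and *P2ry14*, and in 4.08% of all, and the PU.1 site GAGGAAGT stood in 1, that of *Adora3*, and in 2.44% of all. The full CRE, TGACGTCA, which contains the half-site, stood in 0 of the 13 promoters and in 1.55% of all, and the hypoxia response core ACGTG in 0 of the 13 and in 16.6% of all. All motifs were read on both strands. A match is a description of the sequence and not a binding site.

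The primer pair that the study listed for *Nt5e* is also given, because it fixes which part of the transcript a PCR on CD73 reads. In GENCODE transcript ENSMUST00000034992.7 both primers lie in the coding sequence and span 182 bases.
Nt5e forward: agaaagttcgaggtgtggacat
Nt5e reverse: cttcaggtagcccaggtatttg
The forward primer matched exon 3 at chr9:88355716-88355737 and the reverse primer, as its reverse complement, exon 4 at chr9:88363536-88363557, on the plus strand of GRCm38. The count of reads used below covers all exons of the gene. The study reported *Nt5e* as higher in Tim-4+ than in Tim-4- TAMs, among several genes downstream of the transcription factor GATA6.

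Counts on genes totaled 53527928 to 57768202 per Tim-4+ library and 55618306 to 69594245 per Tim-4- library, and 3 counts corresponded to 0.0431 to 0.0560 CPM (counts scaled to library size). This floor covers counting error only. *Timd4*, which encodes Tim-4, had 28683 to 87151 counts in Tim-4+ libraries against 128 to 5669 in Tim-4- libraries. *Adgre1*, which encodes F4/80, was detected in every library and was higher in Tim-4+ TAMs by a log2 fold change of 1.28. The 8 macrophage markers, *Adgre1* among them, summed to 43263 to 55698 CPM in Tim-4+ and 20866 to 33359 CPM in Tim-4- libraries. Of these markers 5 were called higher and 1 lower, and their part in the results below was not tested. All 8 mesothelial and tumor cell markers were lower in Tim-4+ TAMs, with a summed level of 106 to 382 CPM against 430.5 to 2121 CPM in Tim-4- TAMs, and their part in the results below was not tested. Of the platelet and erythroid markers, 2 of 5 tested, *Pf4* and *Hba-a1*, were higher in Tim-4+ TAMs, and DESeq2 called 1. This list summed to 599.7 to 956 CPM against 119 to 298 CPM. Of the 6 neutrophil markers only 2 were tested, and 1, *Csf3r*, was higher (list sum 252 to 369 CPM against 86.7 to 191 CPM). These sums do not show which cells held the RNA, and the part of both lists in the results below was not tested either. The T cell markers summed to at most 7.21 CPM and the NK cell markers to at most 0.424 CPM in any library. In bulk RNA, fewer cells of a type and less RNA per cell cannot be told apart.

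All 10 members passed the count filter and were tested. The receptor genes *Adora2a*, *P2rx4* and *P2ry14* were higher in Tim-4+ TAMs, each in 4 of 4 pairs, by 2.40-fold, 1.41-fold and 1.76-fold. The count of 3 members higher stands against 8.97% of the 16861 genes tested that were called higher (edgeR's quasi-likelihood test with the pair as a block, Benjamini-Hochberg adjusted p under 0.05 over all genes). No member was called lower, against 8.43% of all genes. Because the members were chosen with earlier results of these data known, these shares are a description and not a test. At an unadjusted p under 0.05, 6 members were higher and 1 was lower, and DESeq2 called 5 higher and 0 lower. Over all 16861 genes, 2825 were higher and 2846 lower at an unadjusted p under 0.05, and DESeq2 called 2194 higher and 2328 lower. The median log2 fold change of the members was 0.39 and that of all genes tested was -0.0012. The ranges of CPM in the subsets overlapped for all 10 members, whereas they did not overlap for 12.8% of all genes. With library totals in place of TMM factors the median of all genes shifted to -0.36, and 1 member was higher (*Adora2a*) and 1 lower (*P2ry6*). Over all 16861 genes, 789 were higher and 4906 lower with library totals.

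**Figure D1:**
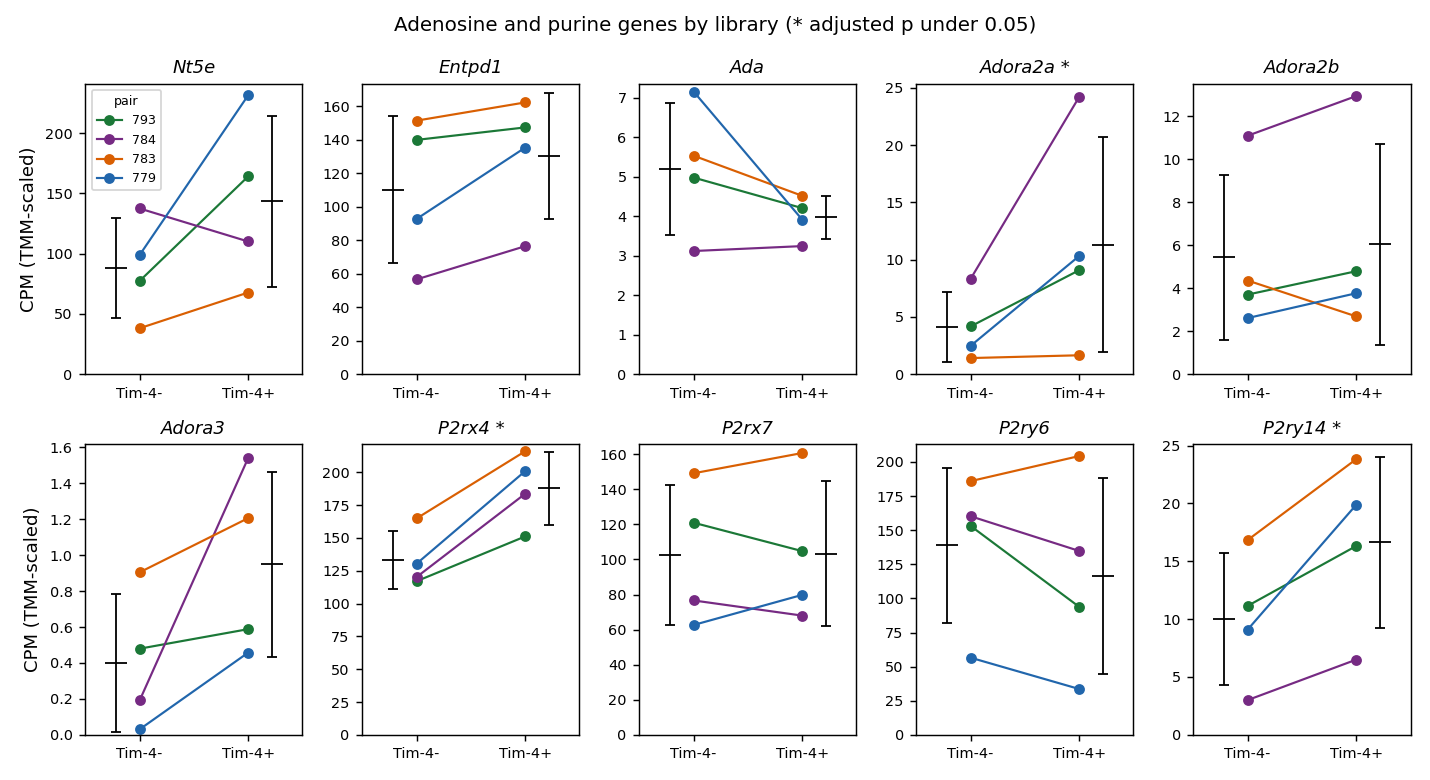
CPM (TMM-scaled, linear axis from 0) of each member in Tim-4- and Tim-4+ TAMs; each colored line joins the libraries of a pair, and the black marks give the mean and SD of 4 libraries. *Adora2a*, *P2rx4* and *P2ry14* (asterisks, adjusted p under 0.05) rose in 4 of 4 pairs, while *Nt5e* was higher in 3 and lower in pair 784.

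The enzymes that turn ATP into adenosine were among the abundant members. *Entpd1* (ENSMUSG00000048120.16, chromosome 19, 40612366 to 40741602, plus strand) had 147, 76.5, 162 and 135 CPM in Tim-4+ TAMs of pairs 793, 784, 783 and 779 and 140.0, 56.6, 152 and 92.8 CPM in the matched Tim-4- TAMs. It was higher in Tim-4+ TAMs of every pair, with means of 130.4 ± 37.6 and 110.2 ± 43.8 CPM (SD, n = 4). It did not pass the test (log2 fold change 0.29, standard error [SE] 0.12, adjusted p = 0.136). With library totals in place of TMM factors its log2 fold change was -0.07. *Nt5e* (ENSMUSG00000032420.8, chromosome 9, 88327197 to 88372092, plus strand) had 164, 110.1, 67.7 and 231 CPM in Tim-4+ TAMs and 77.3, 137, 38.1 and 98.8 CPM in Tim-4- TAMs, in the same order of pairs. The Tim-4+ library was the higher in pairs 793, 783 and 779 and the lower in pair 784. Mean levels were 143 ± 70.8 and 87.9 ± 41.5 CPM (SD, n = 4). The log2 fold change of 0.71 (SE 0.26) did not pass the test (adjusted p = 0.1099). It was called with DESeq2 (adjusted p = 0.0272) and without pair 784, where it was 1.05 (adjusted p = 0.0426), and over all alternatives it ran from 0.36 to 1.05 (adjusted p from 0.0272 to 0.408).

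*Ada* (ENSMUSG00000017697.3, chromosome 2, 163726584 to 163750239, minus strand), whose product turns adenosine into inosine, was low. It had 4.20, 3.24, 4.51 and 3.91 CPM in Tim-4+ TAMs and 4.97, 3.12, 5.53 and 7.15 CPM in Tim-4- TAMs. The Tim-4+ library was the lower in 3 of 4 pairs, with the widest gap in pair 779, with a log2 fold change of -0.34 (SE 0.22, adjusted p = 0.332).

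The adenosine receptors differed in level and in direction. *Adora2a* (ENSMUSG00000020178.6, chromosome 10, 75316877 to 75334784, plus strand), which encodes the high-affinity 2A receptor, had 9.07, 24.2, 1.64 and 10.3 CPM in Tim-4+ TAMs and 4.17, 8.32, 1.401 and 2.47 CPM in Tim-4- TAMs. Pair 784 had the highest level in both subsets and pair 783 the lowest, so the ranges overlapped although the Tim-4+ library was the higher in each pair. The log2 ratio within pairs ran from 0.23 in pair 783 to 2.05 in pair 779. The fit gave a log2 fold change of 1.26 (SE 0.29, adjusted p = 0.0282). It remained positive but did not pass the test without pair 793 (1.32, adjusted p = 0.0846), without pair 784 (1.15, adjusted p = 0.149), without pair 779 (0.996, adjusted p = 0.0891) or without the block (1.47, adjusted p = 0.305).

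*Adora2b* (ENSMUSG00000018500.2, chromosome 11, 62248984 to 62266453, plus strand), which encodes the lower-affinity 2B receptor, had 4.79, 12.9, 2.69 and 3.76 CPM in Tim-4+ TAMs and 3.70, 11.1, 4.36 and 2.61 CPM in Tim-4- TAMs. Pair 784 stood above the other pairs in both subsets, and the Tim-4+ library was the lower in pair 783 only. The fit gave a log2 fold change of 0.11 (SE 0.24, adjusted p = 0.793). *Adora3* (ENSMUSG00000000562.5, chromosome 3, 105870858 to 105908926, plus strand), which encodes the Gi-coupled A3 receptor, was close to the limit of detection, with 28, 77, 66 and 22 counts in Tim-4+ libraries against 32, 14, 71 and 2 counts in their Tim-4- partners. In CPM it was higher in Tim-4+ TAMs of every pair, and by far more in pairs 784 and 779 than in the others. The log2 fold change of 1.64 (SE 0.69) did not pass the test (adjusted p = 0.140) but was called by DESeq2 (adjusted p = 0.0475). Because 20.9% of its exon bases are shared with *Tmigd3* on the same strand, the assignment of its reads is uncertain. *Adora1*, the remaining adenosine receptor gene, is no member and fell in Tim-4+ TAMs, from 8.57 ± 5.20 to 4.15 ± 4.26 CPM (SD, n = 4; log2 fold change -1.53, SE 0.36, adjusted p = 0.0290), lower in 4 of 4 pairs. The call was lost without pair 793 (-1.20, adjusted p = 0.0650), without pair 784 (-1.75, adjusted p = 0.0929), without pair 779 (-1.34, adjusted p = 0.122) and without the block (-1.04, adjusted p = 0.508). Its exons share 20.1% of their bases with *Mybph* on the opposite strand, and whether counting used strand is not stated.

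*P2rx4* (ENSMUSG00000029470.15, chromosome 5, 122707544 to 122729738, plus strand), an ATP-gated cation channel found on the surface and in lysosomes of macrophages, had the smallest range of pair levels of the members. It had 151, 184, 216 and 201 CPM in Tim-4+ TAMs and 117, 120.2, 165 and 130.4 CPM in Tim-4- TAMs. Only the Tim-4- library of pair 783 lay above the lowest Tim-4+ library, that of pair 793. The rise was 0.50 on the log2 scale (SE 0.11, adjusted p = 0.0210), and the log2 ratio within pairs ran from 0.37 to 0.62. The value stayed between 0.46 and 0.55 without pairs 793, 784 and 779 in turn, with adjusted p from 0.0558 to 0.0990, and without the block it was 0.50 with an adjusted p of 0.136. With library totals it was 0.14 (adjusted p = 0.231). *P2rx7* (ENSMUSG00000029468.17, chromosome 5, 122643911 to 122691432, plus strand) lies next to *P2rx4* on the same strand and encodes the low-affinity ATP channel that triggers inflammasome activation. It had 105, 68.0, 161 and 79.8 CPM in Tim-4+ TAMs and 121, 76.6, 149 and 62.7 CPM in Tim-4- TAMs. The Tim-4+ library was the higher in 2 of 4 pairs, with a log2 fold change of 0.02 (SE 0.12, adjusted p = 0.938).

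*P2ry6* (ENSMUSG00000048779.5, chromosome 7, 100937630 to 100974649, minus strand), a receptor for UDP linked to phagocytosis, had 93.8, 135, 204 and 33.6 CPM in Tim-4+ TAMs and 153, 160.2, 186 and 56.5 CPM in Tim-4- TAMs. The Tim-4+ library was the lower in pairs 793, 784 and 779 and the higher in pair 783, the pair with the highest level. The fit gave a log2 fold change of -0.39 (SE 0.16, adjusted p = 0.136). Without pair 783 it was -0.57 and passed the test (adjusted p = 0.0243), as it did with library totals (-0.75, adjusted p = 0.0226). *P2ry14* (ENSMUSG00000036381.13, chromosome 3, 59113855 to 59153618, minus strand), a Gi-coupled receptor for UDP-glucose, had 16.3, 6.50, 23.8 and 19.9 CPM in Tim-4+ TAMs and 11.1, 3.01, 16.8 and 9.10 CPM in Tim-4- TAMs. Pair 784 was the lowest and pair 783 the highest in both subsets. The rise was 0.82 on the log2 scale (SE 0.17, adjusted p = 0.0180), with log2 ratios of 0.50 to 1.13 within pairs. It did not pass the test without pair 784 (0.72, adjusted p = 0.0905), without pair 779 (0.71, adjusted p = 0.0732), without the block (0.73, adjusted p = 0.471) or with library totals (0.46, adjusted p = 0.0520). The gene lies within *Med12l*, which is transcribed from the opposite strand, and their exons share no bases.

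Levels of different genes were compared as RPKM (TMM-scaled CPM per kilobase of exon). *P2ry6* had the highest mean in both subsets, with 40.4 ± 24.8 RPKM in Tim-4+ TAMs and 48.1 ± 19.6 RPKM in Tim-4- TAMs (SD, n = 4). In Tim-4+ TAMs it was followed by *P2rx4* (26.7), *Entpd1* (23.4), *P2rx7* (17.3) and *Nt5e* (16.7). The lower members were *Adora2a* (3.69), *Adora2b* (3.28), *Ada* (1.98), *P2ry14* (1.504) and *Adora3* (0.254). In Tim-4- TAMs the order was *P2ry6*, *Entpd1* (19.8), *P2rx4* (19.0), *P2rx7* (17.1), *Nt5e* (10.2), *Adora2b* (2.95), *Ada* (2.59), *Adora2a* (1.34), *P2ry14* (0.906) and *Adora3* (0.108). By mean, *Adora2a* thus ranked above *Adora2b* and *Ada* in Tim-4+ TAMs and below both in Tim-4- TAMs. The order by mean did not hold in every pair. *Adora2a* was below both genes in both subsets of pair 783 and above *Ada* in both subsets of pair 784. *P2rx7* was above *Nt5e* in 1 of 4 Tim-4+ libraries, and *Adora2b* above *Ada* in 1 of 4 Tim-4- libraries. The ranges of neighbors in the order overlapped, except for *P2ry14* and *Adora3* in both subsets. The lowest *Nt5e* value in Tim-4+ TAMs (7.87 RPKM, pair 783) lay just under the highest *Adora2a* value (7.903 RPKM, pair 784), and *Nt5e* was above *Adora2a* in each of the 8 libraries.

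Related members were also set against each other within a library, which does not depend on the scaling of libraries. These 4 ratios were chosen after the values were seen, and with 4 pairs the exact sign-change test (two-sided) cannot go below p = 0.125. The ratio of *Adora2a* to *Adora2b* (RPKM) was 1.14, 1.13, 0.369 and 1.65 in Tim-4+ libraries against 0.678, 0.452, 0.194 and 0.571 in Tim-4- libraries of pairs 793, 784, 783 and 779. It was higher in 4 of 4 pairs, by a mean log2 difference of 1.13 ± 0.36 (SD, n = 4, exact p = 0.125, adjusted over the 4 ratios 0.167). The ratio of *P2rx4* to *P2rx7* averaged 1.70 ± 0.60 in Tim-4+ and 1.22 ± 0.43 in Tim-4- TAMs and was higher in 4 of 4 pairs (mean log2 difference 0.48 ± 0.25, n = 4, exact p = 0.125, adjusted 0.167). The ratio of *P2ry14* to *P2ry6* averaged 0.0607 ± 0.0639 and 0.0224 ± 0.0153 and was also higher in 4 of 4 pairs (mean log2 difference 1.22 ± 0.63, n = 4, exact p = 0.125, adjusted 0.167). The ratio of *Nt5e* to *Entpd1* was higher in 3 of 4 pairs, and its mean log2 difference of 0.42 ± 0.79 was smaller than its spread (n = 4, exact p = 0.500).

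**Figure D2:**
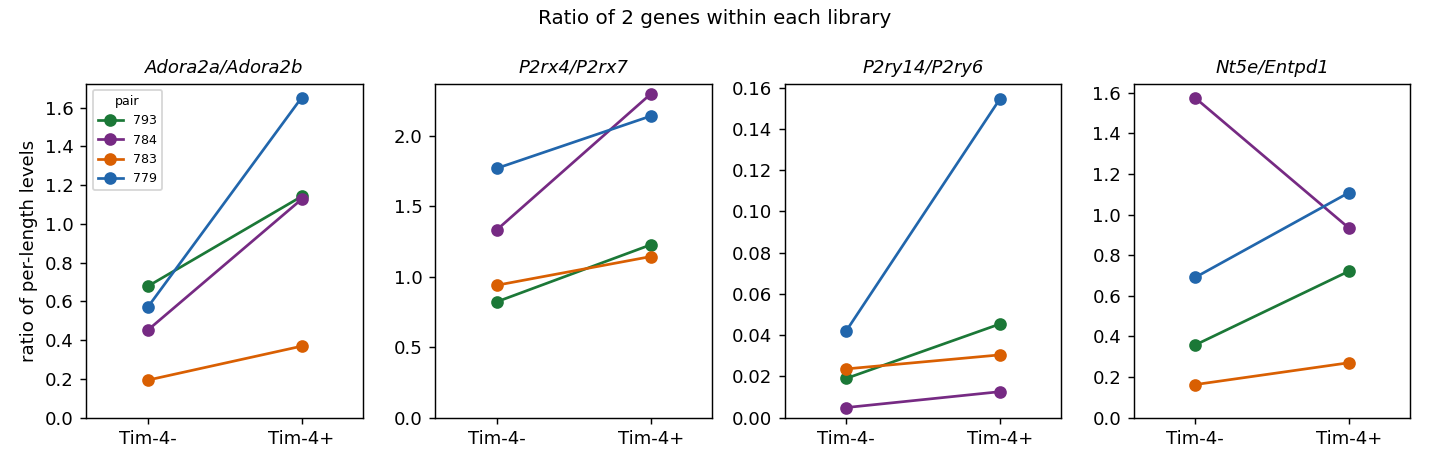
Ratio of the RPKM of paired genes within each library (linear axes from 0), with lines joining the Tim-4- and Tim-4+ libraries of a pair. The first 3 ratios rose in every pair, whereas the ratio of *Nt5e* to *Entpd1* fell in pair 784 from 1.58 to 0.934.

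The level of the members also varied between pairs. The range of pair levels (mean log2 CPM of both libraries of a pair, highest minus lowest of 4) was 0.50 for *P2rx4* and reached 3.22 for *Adora2a*, which corresponds to 9.35-fold between pairs 784 and 783. Pair 783 had the highest level for 6 members, *Entpd1*, *Adora3*, *P2rx4*, *P2rx7*, *P2ry6* and *P2ry14*, and the lowest for *Nt5e* and *Adora2a*. Pair 784 was highest for *Adora2a* and *Adora2b*, and pair 779 for *Nt5e* and *Ada*. The labels give nothing that sets the pairs apart besides their numbers.

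**Figure D3:**
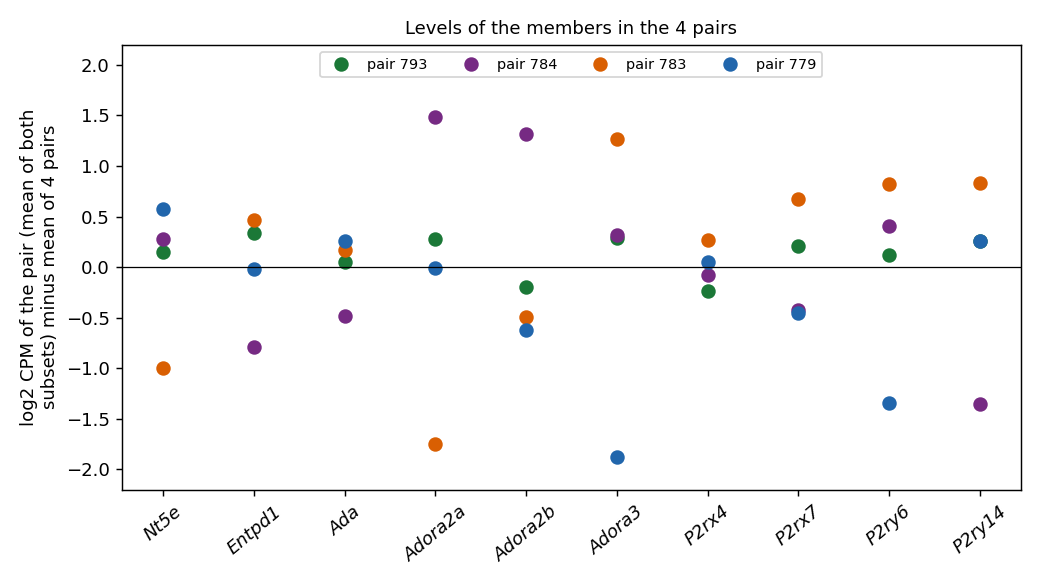
Level of each member in the 4 pairs, as the log2 CPM averaged over both subsets minus the mean of all pairs. The points of *Adora2a* span 3.22 log2 units and those of *P2rx4* span 0.50, and pair 783 lies at opposite ends for *Adora2a* and *P2ry14*.

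The rest of the pathway was followed in 10 lists of 99 genes that include the members, of which 77 were tested. Of these 77, 26 were called higher and 6 lower in Tim-4+ TAMs, with a median log2 fold change of 0.12. Higher calls made up 81.2% of calls, against 51.6% over all genes, where 8.97% were called higher and 8.43% lower. Of the 26, 10 were among the 14 cAMP-response genes, where 0 were lower, and 3 were members. Without the members, 23 of 67 tested genes were higher and 6 lower. The lists were chosen with earlier results of these data known, so these shares are a description and not a test. With library totals, 17 of the 77 were higher and 19 lower (47.2% of calls higher, against 13.9% over all genes), and the median was -0.23. With pair 784 left out, 2 were called higher and 1 lower, with pair 779 left out 8 and 1, and with pair 793 left out 18 and 2. The 2 called higher without pair 784 were *Nt5e*, which was not among the 26, and 1 cAMP-response gene.

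Among 7 tested genes of extracellular nucleotide hydrolysis, 3 were higher and 0 lower (0 also by DESeq2 and at an unadjusted p under 0.05), with a median of 0.71. The 3 genes encode enzymes other than CD39 and CD73. *Acpp*, a phosphatase that also hydrolyzes AMP, was 11.9 ± 4.32 CPM in Tim-4+ and 2.70 ± 2.08 CPM in Tim-4- cells (SD, n = 4; log2 fold change 2.32, SE 0.32, adjusted p = 0.0080), and its ranges did not overlap. *Cd38*, an NAD glycohydrolase, rose from 132 ± 55.9 to 256 ± 82.0 CPM (log2 fold change 1.01, SE 0.15, adjusted p = 0.0089). *Bst1*, its neighbor and homolog, rose from 182 ± 42.4 to 349 ± 139.6 CPM (0.90, SE 0.21, adjusted p = 0.0291). *Enpp1*, a pyrophosphatase, had a log2 fold change of 0.23 and *Entpd2*, another ATP-degrading enzyme, of 0.63, and neither was called. Without pair 784 the only gene of this list called was *Nt5e*, so the calls of *Acpp*, *Cd38* and *Bst1* were all lost. Without pair 779, 2 genes of the list were called, and without the block 0 were called by edgeR (3 at an unadjusted p under 0.05).

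Of 5 tested genes of nucleotide release, the vesicular nucleotide transporter gene *Slc17a9* (log2 fold change 1.04, adjusted p = 0.0167) and *Ank*, a pyrophosphate and ATP exporter (176 against 90.7 CPM, adjusted p = 0.0196), rose in 4 of 4 pairs. *Gja1*, which encodes connexin 43, fell (-1.78, adjusted p = 0.0485) and was lower in 3 of 4 pairs. *Gja1* was not called with lane 1 only (adjusted p = 0.0523), with no count filter (adjusted p = 0.308), without pair 793, 784 or 779 (log2 fold change -1.71, -1.54 and -1.44, adjusted p from 0.160 to 0.178) or without the block, and both higher calls were lost without pair 784, without pair 779 and without the block. Of 4 tested genes of adenosine uptake, *Slc29a1*, the equilibrative transporter ENT1, was lower in 4 of 4 pairs, with 38.9 ± 9.27 CPM in Tim-4+ and 65.8 ± 12.9 CPM in Tim-4- TAMs (-0.77, SE 0.13, adjusted p = 0.0120), and none was called higher (0 also by DESeq2 and at an unadjusted p under 0.05). The call of *Slc29a1* was lost without pair 784, without pair 779 and without the block. Of 13 tested genes of adenosine removal and purine salvage, *Ampd2* (0.60), *Ampd3* (0.73), *Xdh* (0.64) and *Gda* (0.67) were higher. The first pair encode AMP deaminases and the others encode xanthine and guanine degrading enzymes. *Ahcy*, whose product releases adenosine from S-adenosylhomocysteine, was lower (-0.90, adjusted p = 0.0210). Adenosine kinase, *Adk*, had a log2 fold change of 0.02 and was not called. In this list of removal and salvage genes 0 were higher and 3 lower with library totals, 0 were called without pair 793, without pair 784 or without the block, and 1 was called higher and 0 lower without pair 779. Of 8 tested intracellular nucleotidases, 0 were called in either direction by edgeR with TMM factors or by DESeq2, and 2 were lower at an unadjusted p under 0.05, whereas edgeR with library totals called 4 lower.

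Among the other nucleotide receptors, *P2rx1*, an ATP-gated channel, had 37.1 ± 12.8 CPM in Tim-4+ and 8.001 ± 4.37 CPM in Tim-4- TAMs (log2 fold change 2.26, SE 0.37, adjusted p = 0.0138), and its ranges did not overlap. *P2ry2*, a receptor for ATP and UTP, rose in 4 of 4 pairs, from 21.2 ± 15.5 to 62.2 ± 54.2 CPM (2.83-fold, adjusted p = 0.0073). *P2rx6* (-1.37), *P2ry1* (0.44), *P2ry10* (-0.89), *P2ry12* (-0.22) and *P2ry13* (-0.55) were not called by edgeR with TMM factors. *P2rx6* was called lower by DESeq2 (adjusted p = 0.0197) and with library totals, as were *P2ry12* and *P2ry13* with library totals and *P2ry13* without pair 783 (-0.79, adjusted p = 0.0194). The calls of *P2rx1* were lost without pair 784, without pair 779 and with no count filter, and those of *P2ry2* without pair 784 and without the block.

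**Figure D4:**
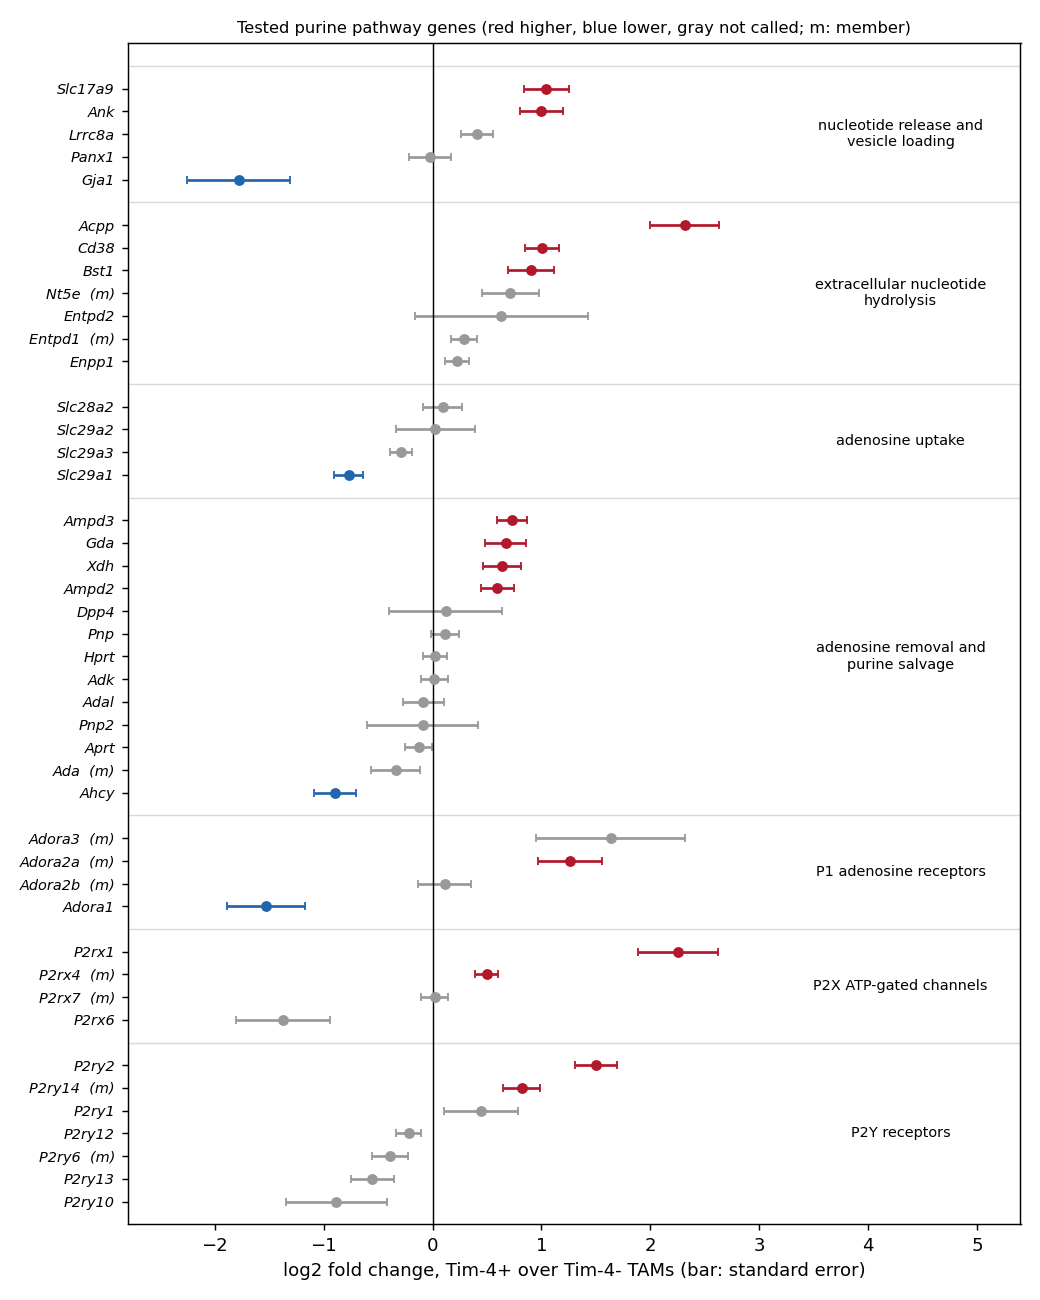
Log2 fold change (Tim-4+ over Tim-4- TAMs, 4 pairs) with its standard error for each tested gene of 7 of the lists, grouped by role; red genes were called higher, blue lower and gray neither, and m marks members. *Acpp* (2.32) and *P2rx1* (2.26) lie farthest to the right, and *Gja1* (-1.78) and *Adora1* (-1.53) farthest to the left.

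Downstream of the receptors, 2 of 11 tested genes of G proteins and adenylyl cyclases were higher and 2 were lower. *Gnas*, which encodes the stimulatory Gs subunit, was higher (log2 fold change 1.04, adjusted p = 0.0087), but its exons overlap *Gm20721* and *Nespas* on the opposite strand and its count is uncertain. *Adcy4* was higher (1.56, adjusted p = 0.0457) and *Adcy6* lower (-1.34, adjusted p = 0.0403), both being adenylyl cyclases. *Gnai1*, an inhibitory subunit, was lower (-3.18, adjusted p = 0.0065). Its level was low, and it was not tested under the filter of at least 1 CPM in 4 libraries. All 4 calls were lost without the block, those of *Gnas*, *Adcy4* and *Adcy6* also without pair 784, and those of *Adcy4* and *Adcy6* also without pair 793, without pair 779 and with no count filter. Over all genes tested, 8.97% were called higher and 8.43% lower. Of 14 genes known to respond to cAMP, 10 were higher and 0 lower (0 also by DESeq2 and at an unadjusted p under 0.05), and the median was 1.04. They were *Nr4a1* (1.31), *Nr4a2* (1.43), *Fosb* (1.37), *Per1* (0.63), *Sik1* (0.69), *Pde4b* (1.13), *Dusp1* (0.94), *Areg* (2.44), *Thbs1* (1.61) and *Vegfa* (0.91). *Crem* (-0.28), *Fos* (0.27), *Nr4a3* (1.31) and *Pde4d* (0.01) were not called by edgeR. *Nr4a3* was called higher by DESeq2 (adjusted p = 0.0046) and limma-voom (adjusted p = 0.0461), while *Fosb* and *Thbs1* were not called by DESeq2. As background, several of these are immediate early genes that many stimuli induce. RNA counts measure neither cAMP nor receptor activity, so a link of these genes to the receptors was not tested. The count was 7 with library totals, 3 without pair 779, 1 without pair 784 and 0 without the block (edgeR, 7 at an unadjusted p under 0.05).

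The genes whose log2 CPM followed the called members and *Nt5e* most closely over the 8 libraries were ranked among 13012 genes, as a description over libraries that share pairs. For *P2rx4* they were *Il18bp* (Pearson r = 0.987), *Grina* (0.980) and *Aldoa* (0.968). For *P2ry14* they were *Dguok* (0.993), *Hsd17b11* (0.986) and *Gm35853* (0.986), and for *Adora2a* they were *Tma16* (0.980), *Zfp407* (0.977) and *Smu1* (0.977). For *Nt5e* they were *Zfp507* (0.961), *Gpbp1* (0.958) and *Birc3* (0.928).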

How the data were processed

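The values that the authors deposited are raw read counts of genes in each lane, not normalized; the text names TopHat2 2.0.13, Cufflinks and Cuffdiff 2.2.1 with hg19, the labels name GRCm38, and the counter and its use of strand are not given in the sources used here. Libraries were stranded, after removal of ribosomal RNA. Summary lines of the counter, 18.9% to 32.9% of reads per lane, were left out. Counts of 2 lanes were summed per library; 1 lane of the Tim-4- library of pair 793 is listed by symbol and was joined by order (95.0% of comparable symbols matched). Names and exon lengths are from GENCODE M21. Genes reaching 10 counts in 4 or more of the 8 libraries were tested with edgeR 4.0.16 (R 4.3.3; quasi-likelihood, robust, TMM, pair block, Benjamini-Hochberg over 16861 genes). The standard error is the log2 fold change over the square root of F. Pairing was checked: subset-centered log2 CPM (prior count 2) of the libraries of a pair correlated with r of 0.277 to 0.498, over 0.1 in all 4. Nothing says that pairs were separate mice, so p-values measure the spread between these samples. Alternatives were DESeq2 1.42.0, limma-voom 3.58.1, other scalings, filters, single lanes, a 2-fold minimum, no block and each pair left out; leaving out the lane listed by symbol was added after seeing the data. The fit was tested on simulated data. Members and lists were chosen with earlier results of these data known. Named are all members, called list genes, other tested receptors and extracellular enzymes, and the 3 genes most like each called member and *Nt5e* (mean of at least 1 CPM). Counts called in the marker lists are given under the alternatives, and those of mesothelial and tumor cell markers in the Results.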

Additional observations from a re-analysis of the deposited data

How the results depend on the processing

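Blocking on the pair decided most calls. With no replicate block in edgeR, 0 members were higher in place of 3 (1 at an unadjusted p under 0.05), 1 purine list gene was higher in place of 26 and 0 lower in place of 6 (20 and 7 at an unadjusted p under 0.05), and 147 genes in all were higher in place of 1512 and 85 lower in place of 1421. With library totals, 1 member was higher and 1 lower in place of 0, purine list genes were 17 and 19, and all genes 789 and 4906. DESeq2 with the block called 5 members higher and 2328 genes lower. With at least a 2-fold change, 1 member, 15 purine list genes and 641 genes were higher. Leaving out each pair gave 0 to 3 members higher and 0 to 1 lower, 2 to 26 purine list genes higher and 1 to 8 lower, and 91 to 1608 genes higher and 67 to 1975 lower. The lowest counts of all genes came without pair 784; the cause was not tested. *Entpd1* turned to -0.070 with library totals. *Adora2b* turned to -0.25 with library totals and -0.027 without pair 779 (-0.027 to 0.37 over the pairs left out). *P2rx7* turned to -0.34 with library totals, -0.010 with lane 1 only, -0.014 without pair 783 and -0.091 without pair 779 (-0.091 to 0.10 over the pairs left out). *Adora2a*, *P2rx4* and *P2ry14* were called with either single lane, both other filters, DESeq2 size factors, limma-voom, and without the lane listed by symbol. Depth limits *Adora3* most, with 2 to 77 counts per library. Of the marker lists, counts called higher and lower were 5 and 1 of 8 for macrophages, 0 and 0 of 3 tested for T cells (0 also by DESeq2 and at an unadjusted p under 0.05), 0 and 1 of 6 for B cells, 1 and 1 of 6 for dendritic cells, 1 and 0 of 2 for neutrophils, 0 and 1 of 3 for mast cells and eosinophils, and 2 and 0 of 5 for platelets and erythroid cells. No NK cell marker passed the count filter.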
